A study of Mus musculus with 6 samples.

Results

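The regions described here are the stretches of accessible chromatin that flank Il33 on mouse chromosome 19. Peaks of 6 ATAC-seq libraries that overlapped were merged into 64817 regions over the genome, and the 553 regions on chromosome 19 between 19925113 and 39960718 (mm10) were kept, which is 10 Mb on each side of Il33 (chr19:29925113-29960718). The other 1475 regions of the chromosome served as the comparison. ATAC-seq marks open chromatin by where the transposase Tn5 can insert adapters into DNA. The cells were regulatory T cells (Tregs) sorted as CD4+CD25+GITR+ from lymph nodes draining a B16.F10 melanoma, 14 days after mice had received 300000 tumour cells under the skin. The wild-type (WT) group was 3 libraries from C57BL6 mice, numbered 2, 4 and 6 in the labels, and the knockout (KO) group was 3 libraries from il33-/- mice in a C57BL6 background, numbered 1, 2 and 4. The il33-/- label names no Cre or promoter, so it is read here as loss of the gene in every cell of the mouse and not in Tregs alone. The labels give neither the deleted part of Il33, nor the strain in which the allele was made, nor the number of backcrosses, nor whether each library came from its own mouse, so p-values measure only how far these libraries spread, and that spread may be technical.

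IL-33 is a cytokine of the interleukin-1 family that is stored in the nucleus of barrier and stromal cells, released on damage, and read by the receptor ST2, which a share of tissue Tregs carries. When a gene is disrupted by targeting, DNA around it travels with the allele, and backcrossing removes that flanking DNA only slowly close to the gene. A passenger effect of such DNA would be a difference between genotypes near the target that belongs to the neighbouring sequence and not to the missing gene, and comparing WT with KO by distance from Il33 addresses that question.

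Il33 has 2 start sites in RefSeq, and neither lay in a called region in any library, whereas the start sites of its neighbours Ranbp6, Uhrf2, Cd274 and Jak2 lay in regions called in all 6. The 250 bases before each start, from RefSeq on GRCm38.p6 (the assembly behind mm10), are shown to set the starts of the targeted gene, where no peak was called, beside neighbouring starts that lay in called regions. Each is written 5′ to 3′ in the direction of its gene, and capitals mark matches on either strand to a TATA box (TATAAA), to the letters of the CCAAT box, or to a GC box, whose letters are given with its count. The windows are chr19:29924863-29925112 and chr19:29945540-29945789 for Il33 (plus strand), chr19:29812975-29813224 for Ranbp6 (minus strand), and chr19:30030263-30030512 for Uhrf2, chr19:29367188-29367437 for Cd274 and chr19:29251553-29251802 for Jak2 (plus strand).
Il33 start 1: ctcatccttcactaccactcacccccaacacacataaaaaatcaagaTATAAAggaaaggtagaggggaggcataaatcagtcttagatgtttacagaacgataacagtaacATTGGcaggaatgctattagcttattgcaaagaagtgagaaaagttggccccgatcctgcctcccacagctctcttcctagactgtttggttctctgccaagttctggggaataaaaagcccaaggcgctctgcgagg
Il33 start 2: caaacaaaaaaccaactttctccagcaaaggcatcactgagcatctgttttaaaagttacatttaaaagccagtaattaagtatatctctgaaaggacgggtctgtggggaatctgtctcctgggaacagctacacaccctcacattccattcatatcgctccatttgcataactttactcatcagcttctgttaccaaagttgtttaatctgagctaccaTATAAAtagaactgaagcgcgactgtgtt
Ranbp6: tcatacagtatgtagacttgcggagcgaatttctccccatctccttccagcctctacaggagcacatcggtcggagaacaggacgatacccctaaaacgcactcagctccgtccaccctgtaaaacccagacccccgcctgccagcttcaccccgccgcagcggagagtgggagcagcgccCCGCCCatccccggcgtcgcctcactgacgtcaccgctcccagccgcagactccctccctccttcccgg
Uhrf2: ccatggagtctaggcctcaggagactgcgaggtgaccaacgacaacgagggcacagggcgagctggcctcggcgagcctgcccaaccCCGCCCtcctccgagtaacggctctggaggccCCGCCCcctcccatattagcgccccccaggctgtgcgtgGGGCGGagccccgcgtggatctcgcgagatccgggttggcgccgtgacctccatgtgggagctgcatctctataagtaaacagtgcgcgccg
Cd274: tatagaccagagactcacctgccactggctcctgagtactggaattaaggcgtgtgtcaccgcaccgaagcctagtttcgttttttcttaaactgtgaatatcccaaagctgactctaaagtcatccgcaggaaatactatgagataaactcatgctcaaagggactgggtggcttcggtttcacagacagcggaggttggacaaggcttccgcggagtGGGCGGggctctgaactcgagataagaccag
Jak2: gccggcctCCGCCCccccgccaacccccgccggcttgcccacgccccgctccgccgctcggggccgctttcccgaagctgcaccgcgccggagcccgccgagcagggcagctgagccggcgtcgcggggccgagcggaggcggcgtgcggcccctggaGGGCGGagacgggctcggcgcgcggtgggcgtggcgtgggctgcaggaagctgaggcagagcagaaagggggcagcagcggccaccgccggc

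The Il33 windows held 4 CG pairs each and 45.2% and 39.6% G or C, while the 4 neighbours held 11 (Cd274) to 37 (Jak2) CG pairs. Il33 start 1 had a TATA match 203 bases before the start and a CCAAT match on the reverse strand at 138, and start 2 had a TATA match at 29. Each of the 4 neighbours had a match to the GC box (GGGCGG) and none of the TATA or CCAAT letters. Over the 242 RefSeq start windows within 10 Mb of Il33, a GC box match stood in 48 of the 81 that lay in a region called in all 6 libraries (59.3%) and in 21 of the other 161 (13.0%), against 32.7% of all 32851 windows of this length. A TATA match stood in 4.94% of those 81 and 19.3% of those 161, against 12.4% of all. These matches describe letters, and a window without one says only that those letters are absent from it.

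Within the Il33 gene span, 1 region was called (chr19:29948010-29948768), 2220 bp after start 2 and 22897 bp after start 1, and all 6 libraries had it. Its summit pileup, the number of extended tags that cover the highest point of the peak, was 24 in WT 2, 36 in WT 4 and 24 in WT 6, and 21 in KO 1, 12 in KO 2 and 23 in KO 4. Divided by the median pileup of each library's list, these heights were 0.857, 1.33 and 0.828 in WT and 1.05, 0.750 and 1.0 in KO, so the groups overlapped and the region was close to a typical peak in every library. A peak in a knockout library at the targeted gene checks nothing here, because the deleted part is not known. Heights scaled this way were on average 0.35 higher in WT on the log2 scale over all regions called in all 6 libraries, so heights were then centred in each library on the median of those regions. On that scale the WT minus KO difference of the Il33 region was -0.26 (SE 0.21, two-sided exact permutation p = 0.2, limma adjusted p = 0.580), and without the centring it turned to 0.09.

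Most of the genes beside Il33 were open in both genotypes. Of the 23 protein-coding genes within 1 Mb, 22 had a region in the gene or within 10 kb and 19 had one called in all 6 libraries, while Mbl2, a liver lectin gene, had none. Within 10 Mb, 109 of 135 had a region, and the share over the genome was not counted. Genes that lie close together share regions, as Insl6 and Rln1 do. The genes within 1 Mb held 76 distinct regions, 37 of them called in all 6, against 45.4% of all regions. The Ranbp6 promoter region (an importin family gene) had pileups of 84, 78 and 86 in WT 2, 4 and 6 and 45, 30 and 45 in KO 1, 2 and 4, and its centred difference was 0.20 (SE 0.12, limma adjusted p = 0.394). The Uhrf2 promoter region, of a gene for a ubiquitin ligase that binds methylated or hydroxymethylated DNA, had 109, 109 and 117 in WT and 70, 57 and 78 in KO, with a difference of -0.15 (SE 0.092, adjusted p = 0.413). Raw pileups were lower in every KO library at both promoters, and after centring the small differences pointed in opposite directions.

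The checkpoint ligand and kinase genes on the low-coordinate side had promoter or gene body regions called in all 6 libraries, and others that were not. At Jak2, 4 of 11 regions were called in all 6, and the lists held 6, 9 and 7 peaks in WT 2, 4 and 6 and 6, 4 and 5 in KO 1, 2 and 4. The promoter region of Cd274, which encodes PD-L1, had pileups of 85, 92 and 96 in WT and 55, 46 and 52 in KO and a centred difference of -0.03 (SE 0.11, limma adjusted p = 0.913). The promoter region of Jak2, a kinase of cytokine receptors, had 70, 63 and 68 in WT and 31, 28 and 38 in KO and a difference of 0.19 (SE 0.13, adjusted p = 0.499). All 4 regions of Pdcd1lg2, which encodes PD-L2, that were called in all 6 libraries had differences between -0.21 and 0.09. The remaining neighbours with such a region were 4430402I18Rik, Plpp6, Cdc37l1, Ak3, Rcl1, Insl6, Rln1, Plgrkt, Ric1, Ermp1, Mlana, 9930021J03Rik and Prkg1, and none of the genes within 1 Mb had a region past the limma threshold. Dkk1, the gene of a secreted Wnt inhibitor, and Gldc, of the glycine cleavage enzyme, had peaks in every WT list and in no KO list, and Trpd52l3 had a single peak each in WT 4 and KO 4. At Dkk1, 1 of 2 regions was called in all WT libraries. The Gldc peaks were spread over 2 regions, and neither was called in all WT libraries. How many genes of the genome have this pattern was not counted, and the part of depth in it was not tested.

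**Figure D1:**
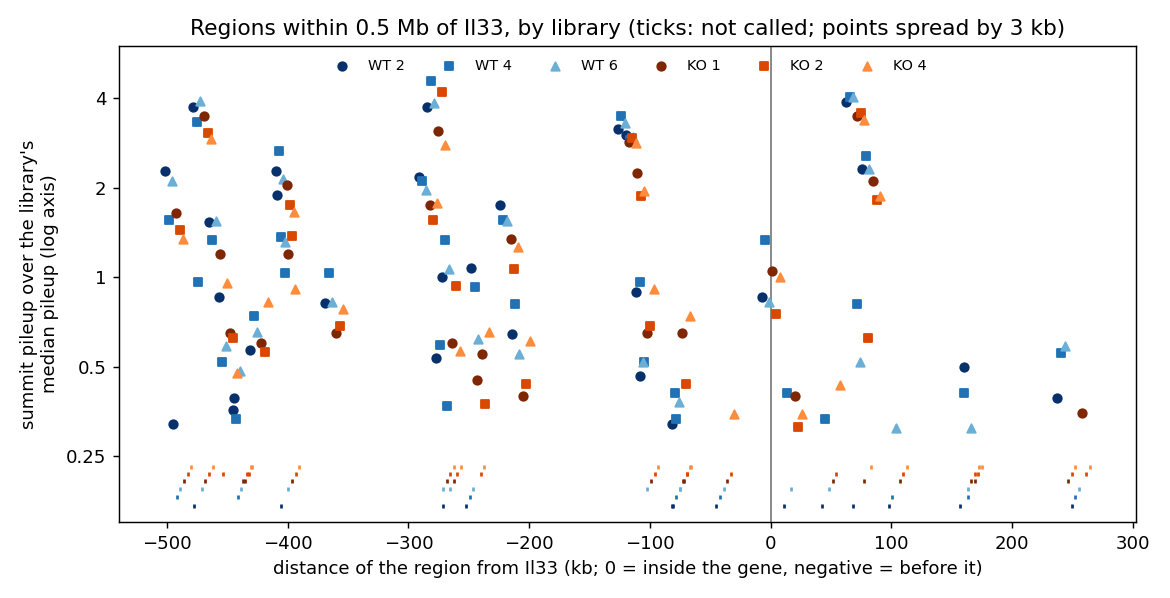
Height of every region within 0.5 Mb of Il33 in each library: x, distance from the gene in kb; y, summit pileup over the library's median pileup (log axis). Blue symbols are WT and orange and brown symbols KO libraries; ticks at the bottom mark libraries that did not call the region. The 19 regions called in all 6 libraries include Il33's own, which is at 0.75 to 1.33, and 5 of the 41 regions were called in more KO than WT libraries.

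Depth limits every presence call. WT libraries kept 12.9 to 15.2 M tags (M, mega) after filtering (mean 13.7 ± 1.29, SD, n = 3) and KO libraries 4.72 to 10.3 M (7.75 ± 2.82, n = 3), so each KO library was shallower than each WT library. In the calls, the effects of genotype and of depth cannot be told apart. All 7 Treg marker genes, Foxp3, Il2ra and Ctla4 among them, had a region called in all 6 libraries, and summed over the list WT libraries held 59 to 65 peaks and KO libraries 46 to 49. Of markers of other cells, 2 of 4 B cell genes (9 to 13 peaks in WT, 5 to 7 in KO), 2 of 4 myeloid genes (6, and 5 to 6), 1 of 4 CD8 T and NK genes (4 to 5, and 2 to 3) and 3 of 5 melanoma genes (8 to 11, and 7 to 10) had a region in all 6. Ms4a1, Csf1r, Lyz2, Ncr1, Tyr and Dct had no peak in any library, and the part of other cells in the results below was not tested. Of the members, the WT lists called 405, 453 and 412 and the KO lists 309, 271 and 305 (mean 423 ± 25.9 against 295 ± 20.9, SD, n = 3 each).

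Compared with the rest of its chromosome, the stretch around Il33 was sparse in open chromatin. It held 27.6 regions per Mb and 10.9 called in all 6 libraries per Mb, and the rest held 38.7 and 18.3. Members had a median scaled pileup of 0.667 against 0.877, and 78 of 553 (14.1%) overlapped a promoter window, which runs from 250 bases before to 50 after a RefSeq start, against 21.4% of the rest. Of the 121 protein-coding genes with such a window, 56 had one in a region called in all 6 libraries, 55 had none in any region, and 1, Gda (guanine deaminase), had one in a region called only in WT (pileups 8, 13 and 10). At the edges of the span, the outermost members were near Anxa1 (chr19:20345601-20345904, 3 WT and 1 KO libraries) and Hells (chr19:38981842-38982308, 3 and 2), and the next regions outside were at Rorb (2 and 0) and Pdlim1 (3 and 1).

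The presence pattern leaned to WT around Il33, as it did over the genome. Of the 553 members, 219 (39.6%) were called in all 6 libraries, against 45.4% of all regions and 47.3% of the rest of chromosome 19. A further 33 (5.97%) were called in all 3 WT and no KO libraries, against 4.66% of all regions and 4.88% of the rest. None was KO-only (all 3 KO libraries, no WT library), where the share over all regions was 0.0185% and the rest of chromosome 19 had 1 such region. In between, 246 were called in more WT than KO libraries without being WT-only, 24 in equal numbers and 31 (5.61%) in more KO than WT libraries, against 4.14% of all regions and 4.47% of the rest. Members called in more KO libraries were small (median width 236 bp, median scaled pileup 0.414), and none overlapped a promoter window. Such regions were also small on the rest of chromosome 19 (269 bp and 0.453), where 1 of 66 overlapped a promoter window. The 18 other autosomes ranged from 4.01% to 5.33% for WT-only regions and from 3.50% to 4.73% for regions with more KO libraries, and the 95% Wilson intervals of the members' shares (4.28% to 8.26% and 3.98% to 7.85%, counting error only) reached into those ranges. In lists of equal length the WT-only share of the members was 1.32%, and the share over all regions in those lists was not counted. Presence was not tested.

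By distance, the pattern was counted in 5 classes, of which those close to the gene held few regions. Of the 41 regions within 0.5 Mb, 2 were WT-only and 5 (12.2%) had more KO than WT libraries, and from there outward the share with more KO libraries was 3 of 52 at 0.5 to 1 Mb, 6 of 89 at 1 to 2.5 Mb, 9 of 166 at 2.5 to 5 Mb and 8 of 205 (3.90%) at 5 to 10 Mb. Of regions called in all 3 WT libraries, all 3 KO libraries also called 86.4% (19 of 22) within 0.5 Mb and 82.8% (24 of 29) at 0.5 to 1 Mb. The same share was 57.9%, 62.2% and 65.1% in the 3 outer classes, 68.6% over the rest of the chromosome and 67.6% over all regions. Of the same regions, those that no KO library called were 9.09% (2 of 22), 6.90%, 8.77%, 10.2% and 11.1% from the innermost to the outermost class. They were 7.07% over the rest and 6.95% over all regions. Neither share moved steadily with distance. These are counts with no test.

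**Figure D2:**
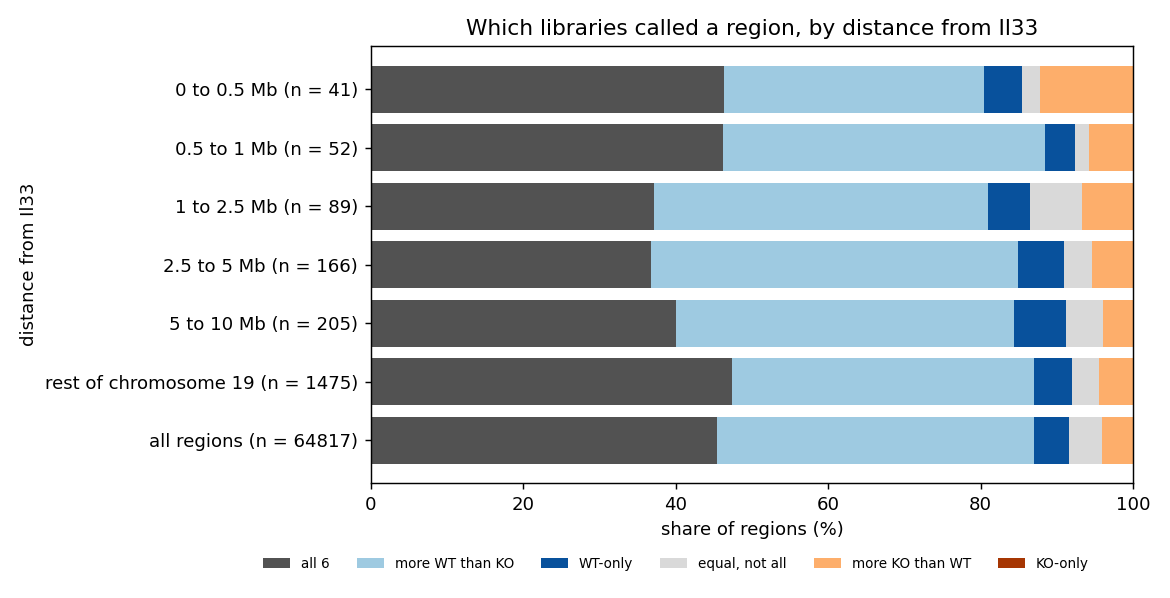
Share of regions by which libraries called them: bars, distance classes from Il33, the rest of chromosome 19 and all regions, with n; x, percent of regions. The segment for more KO than WT libraries goes from 12.2% within 0.5 Mb to 3.90% at 5 to 10 Mb, and the KO-only segment is empty in every distance class.

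The regions that leaned to KO next to Il33 were low. Within 100 kb there were 10 regions; 3 had a peak in every library and 3 had one in more KO than WT libraries. The region at chr19:29850281-29850787, between Ranbp6 and Il33, had pileups of 11 in WT 4 and WT 6, none called in WT 2, and 13, 7 and 17 in KO 1, 2 and 4. The region at chr19:29978920-29979237, 18202 bp past the end of Il33, had 11 in WT 4 and 8, 5 and 8 in the KO libraries. The last, at chr19:29887544-29887743, was called in KO 4 alone, at 8. All of these heights were below the median pileup of their lists, and the first of these regions was called in 5 of 6 libraries. Over all members, 4 regions were called in all 3 KO and fewer than 3 WT libraries, those just given at 29850281 and 29978920, one 22441 bp from Jak2 (16 and 17 in WT 2 and WT 4, and 12, 9 and 15 in KO) and one in Sgms1, a sphingomyelin synthase gene (27 and 32 in WT 2 and WT 6, and 16, 11 and 19 in KO). Sgms1 and its neighbour Asah2, 2 to 2.5 Mb after Il33, held 47 regions, 5 with more KO libraries, among them chr19:32182184-32182479 with 21 in KO 1, 24 in KO 4 and no call in WT. These regions were singled out after their values were seen.

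The 8 WT-only members that ranked highest within their lists lay 3.17 to 8.34 Mb from Il33. Next to Ifit2, an interferon-induced gene, a region 292 bp wide (chr19:34548019-34548310) had pileups of 37, 44 and 42. In Dock8, whose product drives actin remodelling in lymphocytes, a region 278 bp wide (chr19:25057867-25058144) had 52, 52 and 39. These heights exceed the median pileup of each WT list, and no KO list had a peak there. Both stood over a high local background, on average 2.22 and 3.48 times the library's median, with mean fold enrichments of 5.0 and 3.84. The others were at or near 1110059E24Rik (19, 24 and 18), Ide, the insulin-degrading enzyme gene (23, 20 and 24), Smarca2, a chromatin remodelling ATPase gene (24, 22 and 24), Lipa, the lysosomal acid lipase gene (11, 16 and 18), Mamdc2 (15, 17 and 13) and Cemip2 (15, 16 and 13). With a stricter significance of 5 on the −log10 q scale in every list, 18 of the 33 WT-only members stayed in all WT and no KO lists, and 5 of 33 did so when all lists were shortened to the 37266 peaks of highest significance in each. Those 5 were the regions near Ifit2 and 1110059E24Rik and in Dock8, Ide and Smarca2. How many WT-only regions of the whole genome stayed under these settings was not counted, so the members are not shown to differ from them.

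Heights were compared in the 219 members called in all 6 libraries, which had to be high enough in the shallowest library to be called there. Past an adjusted p of 0.05 (limma, Benjamini-Hochberg over all 29419 such regions), 0 members were higher in WT and 2 were higher in KO. Over all regions the same fit called 0.323% higher in WT and 2.10% higher in KO, and at an unadjusted p under 0.05 it had 36 members (16.4%) and 16.5% of all regions. The 2 members were promoters. That of Rfx3, a transcription factor of ciliated cells, lies 1.91 Mb before Il33 (chr19:28010472-28012380) and had pileups of 113, 112 and 111 in WT and 84, 73 and 82 in KO. After centring, its height was 1.3 times higher in KO (log2 WT minus KO -0.38, SE 0.094, limma adjusted p = 0.0205), with no overlap between groups. That of Cep55, a gene of cell division, lies 8.09 Mb after Il33 (chr19:38053834-38055448), was the tallest member, and had 115, 121 and 122 in WT and 82, 68 and 94 in KO. Its centred height was 1.24 times higher in KO (-0.31, SE 0.086, adjusted p = 0.0415), again with no overlap. Neither call held when any WT library or KO 1 was left out, each of which gave 0 calls in KO direction.

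The tallest members mostly leaned the same way. The 20 tallest were called in all 6 libraries, 14 were promoters, and 17 had a higher centred height in KO, with a median difference of -0.12. After Cep55 came the promoters of Abhd17b, a depalmitoylase gene (116, 131 and 131 in WT, and 82, 60 and 86 in KO), and Zfand5, a zinc finger gene (138, 121 and 126, and 79, 58 and 86), with differences of -0.13 and -0.07. All regions called in all 6 libraries were ranked by mean height into 4 classes of equal size. From the lowest to the highest class, the median difference was 0.03, 0.04, -0.01 and -0.13. In the highest class only 1329 of 7355 regions over the genome had a difference above 0, so the lean of tall regions to KO was not particular to the members. The WT minus KO difference was thus lowest in the tallest regions in these libraries of unequal depth, and the part of depth in this was not tested.

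Counting members whose 3 WT and 3 KO centred heights did not overlap, 28 of 219 (12.8%) were higher in WT and 12 (5.48%) higher in KO. The same shares over all regions were 6.93% and 13.9%, and over the rest of chromosome 19 they were 7.16% and 15.0%. The other 18 autosomes ranged from 5.42% to 8.60% and from 10.6% to 17.8%. The balance turned within 2 Mb of Il33, where 3.70% were higher in WT and 9.26% in KO, which is the direction of all regions. These shares rest on few regions. Of 19 called in all 6 libraries within 0.5 Mb, 0 were higher in WT and 3 in KO, and of 24 at 0.5 to 1 Mb, 2 and 0. The balance over all members also moved with the scaling, to 55.7% and 0% with division by the list median alone and to 6.39% and 3.20% with division by the tags kept. Division by the list median alone leaves in the 0.35 shift of all regions. The shares over all regions were not counted under these scalings, so these values are not shown to be particular to the members. The median WT minus KO difference was 0.05 over the members, with 131 of 219 above 0, and -0.04 over the rest of the chromosome, while the other autosomes ranged from -0.06 to 0.01. Members were fewer among the tallest regions, with 17.4% of them in the highest class against 34.2% of the rest. In each class the members' median difference was above that of the rest, at 0.12 against 0.10, 0.10 against 0.08, 0.07 against 0.00 and -0.07 against -0.13 from the lowest to the highest class. The non-overlap counts did not follow this in the lowest class, where 6.90% of members and 11.8% of the rest were higher in WT, and 5.17% and 4.86% higher in KO.

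**Figure D3:**
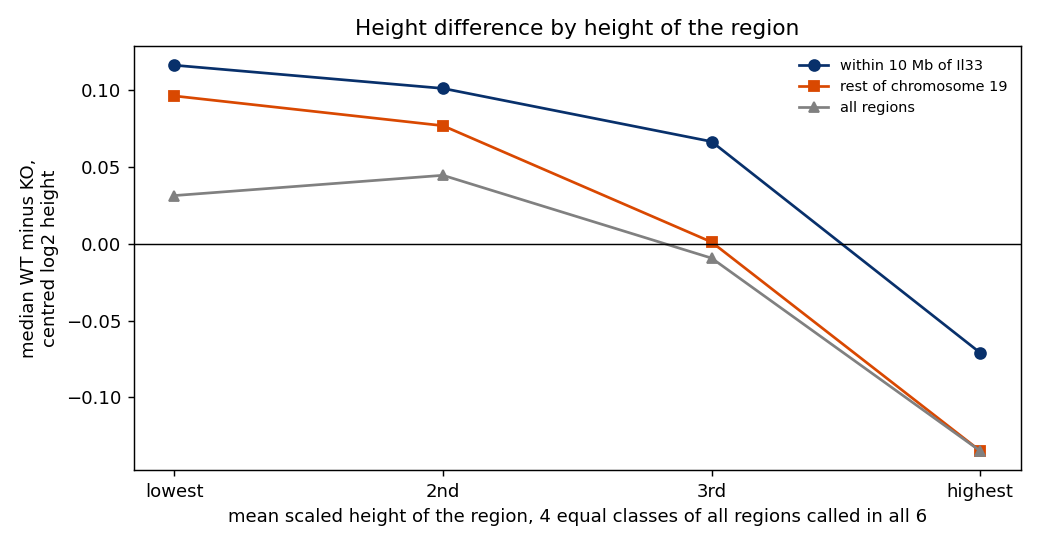
Median WT minus KO difference in centred log2 height (y) by class of mean scaled height (x, 4 classes of equal size), for regions within 10 Mb of Il33, on the rest of chromosome 19 and over the genome. All 3 lines fall below 0 in the highest class, and the line for the Il33 surroundings is the uppermost in each class, from 0.12 to -0.07.

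Per library, the members were lower than the rest of the chromosome, and by less in WT. The median log2 height of the members minus that of the other regions of chromosome 19, which no scaling of a library can change, was -0.33, -0.36 and -0.30 in WT 2, 4 and 6, and -0.44, -0.40 and -0.37 in KO 1, 2 and 4. The groups did not overlap, and they differed by 0.07 (two-sided exact permutation p = 0.1, the smallest that 3 against 3 libraries can give). This measure does not match regions by height, and 17.4% of the members were in the highest class against 34.2% of the rest. Among regions above the median height the difference was 0.10 (exact p = 0.1), and among those below it 0.03 (exact p = 0.6). The part of region height in the 0.07 was not tested. With the span narrowed, the difference was 0.018 within 5 Mb (exact p = 0.5) and 0.025 within 2 Mb (exact p = 0.6). There the rest of the chromosome also held the members farther out, so these values and the 0.07 have unlike comparisons. Without WT 6 the difference over the full span was 0.045 (exact p = 0.2). The local background around the same peaks did not separate the groups, at -0.43, -0.47 and -0.51 in WT and -0.47, -0.61 and -0.41 in KO (difference 0.03, exact p = 0.8).

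The share of a library's chromosome 19 peaks that lay within 10 Mb of Il33 was 25.3%, 26.4% and 25.8% in WT and 24.9%, 24.7% and 24.3% in KO. The means were 25.8% ± 0.532 and 24.6% ± 0.304 (SD, n = 3 each), which differ by 1.21 percentage points (two-sided exact permutation p = 0.1) with no overlap. This direction depended on list length. In lists of equal length the shares were 23.8%, 23.7% and 23.6% in WT and 24.4%, 24.7% and 23.8% in KO, so the order of the groups turned (-0.61 points, exact p = 0.1), whereas at the stricter threshold the difference was 1.49 points. The relative height kept its direction in both, at 0.09 and 0.06.

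**Figure D4:**
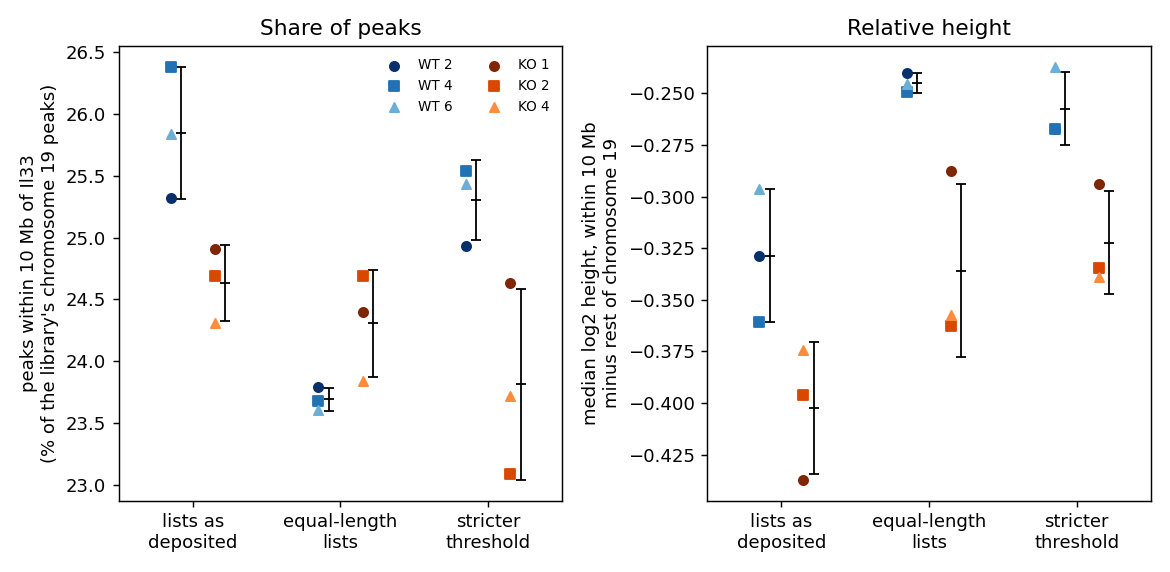
Left, share of each library's chromosome 19 peaks within 10 Mb of Il33 (y, percent); right, median log2 height there minus the rest of chromosome 19 (y). Points are libraries, bars mean ± SD (n = 3). The share is higher in WT in the lists as deposited (25.8% against 24.6%) and lower in WT in lists of equal length (23.7% against 24.3%), while the relative height is higher in WT in all 3 settings.

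By distance, which class had the greatest height difference depended on the regions used. Per library medians of the centred heights within 0.5 Mb were 0.24, -0.16 and -0.06 in WT and 0.00, 0.14 and -0.05 in KO, which overlapped (difference -0.03, exact p = 0.8). At 0.5 to 1 Mb the difference was -0.03 (p = 0.8), at 1 to 2.5 Mb 0.08 (p = 0.2) and at 2.5 to 5 Mb 0.03 (p = 0.7), by exact permutation tests. At 5 to 10 Mb the WT libraries had -0.10, -0.13 and -0.10 and the KO libraries -0.30, -0.15 and -0.21, which did not overlap (difference 0.11, exact p = 0.1, 0.5 after Benjamini-Hochberg adjustment over the 5 classes). That difference was 0.036 (exact p = 0.4) in equal-length lists and 0.065 (exact p = 0.2) at the stricter threshold. With only the regions above the median height it was 0.055 (exact p = 0.5), and the class within 0.5 Mb then had the greatest difference, 0.24 (exact p = 0.1), followed by 0.13 at 2.5 to 5 Mb (exact p = 0.1). The direction of the 4 inner classes changed with the settings given in the closing section.

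The share of chromosome 19 peaks was also taken by class. Within 0.5 Mb it was 1.78% ± 0.151 in WT and 1.96% ± 0.0550 in KO (exact p = 0.2), at 0.5 to 1 Mb 2.35% in both, and the 3 outer classes were higher in WT by 0.37, 0.51 and 0.52 percentage points (exact p = 0.1 each, adjusted 0.167). In lists of equal length 2 of these 3 turned, to -0.30 at 1 to 2.5 Mb and -0.13 at 5 to 10 Mb, and 2.5 to 5 Mb was 0.31. In those lists the class within 0.5 Mb was 1.69% ± 0.0216 in WT and 1.99% ± 0.0721 in KO with no overlap (exact p = 0.1), and the KO mean was the higher next to the gene in all the alternatives run. The share counts peaks and not regions, so a region split into several peaks counts more than once. In the 3 regions in or within 10 kb of Ranbp6, KO lists held 5, 4 and 4 separate peaks and each WT list held 3. The part of such splits in the higher KO share was not tested.

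In windows of 1 Mb with at least 5 regions called in all 6 libraries, the median difference ran from -0.12 to 0.28 over 16 windows centred up to 10 Mb from Il33 (median 0.02), and from -0.14 to 0.14 over 27 windows elsewhere on the chromosome. The window centred 10 Mb after Il33 is counted among the 16, but it held only regions just outside the span (-0.03). The highest window, at 0.28, was centred 6 Mb before Il33, and the next, at 0.20, was centred 5 Mb after it. On the low-coordinate side 5 to 10 Mb from Il33, the 37 regions called in all 6 libraries had a median difference of 0.20, 27 lay above 0, and 8 had WT heights that did not overlap the KO heights against 1 in the other direction (over all regions, 6.93% and 13.9%). This side was singled out after its values were seen. Of the 5 largest differences towards WT, 3 were on that side. The region 30403 bp from Cemip2 (chr19:21747215-21747937), a gene for a hyaluronan-degrading protein, had pileups of 40, 40 and 32 in WT and 15, 7 and 17 in KO, a centred 1.67-fold higher height in WT (log2 0.74, SE 0.22, limma adjusted p = 0.0546). Those near 1110059E24Rik (34, 38 and 44, and 18, 10 and 15) and Tmc1 (35, 36 and 37, and 16, 10 and 14) both had a difference of 0.59, with adjusted p of 0.104 and 0.114. None of these passed the threshold.

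On the high-coordinate side a large difference towards WT was in Exoc6, an exocyst gene, with pileups of 36, 31 and 19 in WT and 13, 12 and 6 in KO (0.63, limma adjusted p = 0.229). Large differences towards KO were near Gm41844 (-0.58), in Prkg1, a cGMP-dependent kinase gene (-0.57), near Pcgf5 (-0.52) and near Lgi1 (-0.49), with limma adjusted p of 0.156 to 0.342. None of these passed the threshold.

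**Figure D5:**
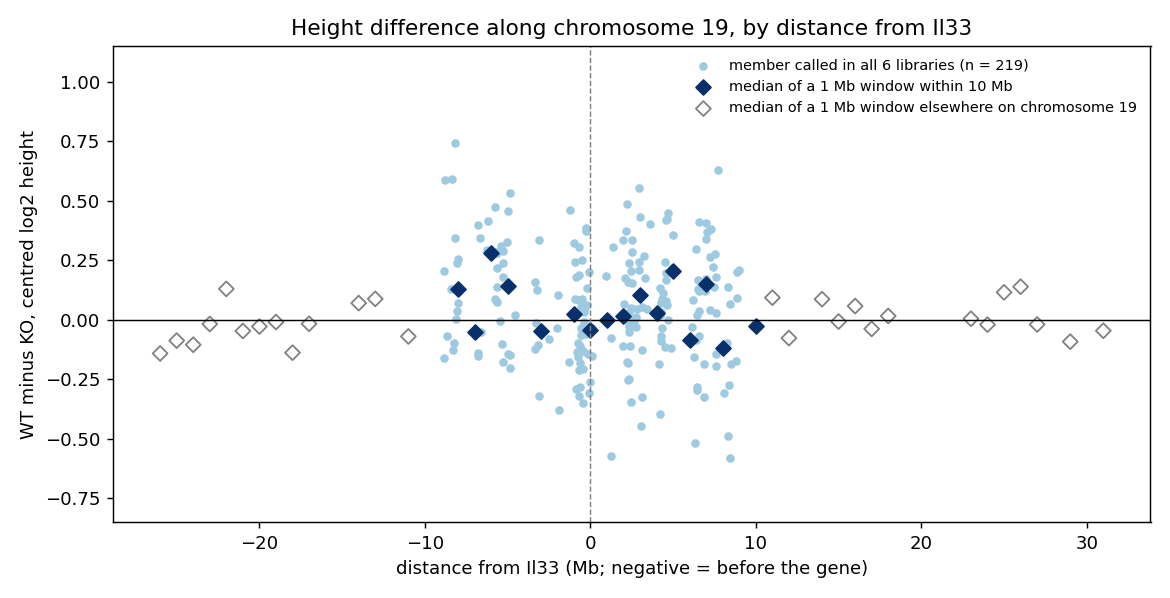
WT minus KO difference in centred log2 height (y) by distance from Il33 in Mb (x): pale points are the 219 members called in all 6 libraries, filled diamonds medians of 1 Mb windows centred up to 10 Mb away, and open diamonds windows elsewhere on chromosome 19. The filled diamond at 10 Mb after the gene holds only regions just outside the span. Window medians near 0 Mb lie close to 0, and the highest, 0.28, is more than 5 Mb before the gene.

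A list of genes of the interval, chosen for immune, interferon or other cell functions, was described as a group. Of 31 listed genes there, 29 had a region and 28 had one called in all 6 libraries; Anxa1 and Rbp4 had none. Their 159 distinct regions held 10 that were WT-only (6.29%, against 4.66% of all regions), at 8 of the genes, and 10 with more KO libraries (6.29%, against 4.14%), at 9. Dock8 had 8, 9 and 8 peaks in WT 2, 4 and 6 and 4, 5 and 5 in KO 1, 2 and 4, and Smarca2 had 11, 12 and 12 against 7, 7 and 8, so both held fewer peaks in every KO list than in any WT list. At Fas, the death receptor gene, there were 6, 7 and 5 against 4 in each KO list, while its 4 regions called in all 6 libraries had height differences of only -0.04 to 0.11. The interferon-induced gene Ifit2 had 3, 5 and 3 peaks in WT and 1 in each KO list, and its neighbour Ifit3 had 2, 3 and 2 against 2 in each. Mlana and Kif20b had 2 peaks in each of the 6 lists, and Cd274 had 6 in each WT list and 6, 5 and 6 in KO. KO lists were shorter as a whole, with 40804 peaks on average against 54009 in WT. How many genes of the genome separate the groups by peak count was not counted, so these genes are not shown to stand out. The part of depth in these counts was not tested.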

How the data were processed

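The data were peak lists of 6 libraries, grouped by the genotype in the labels. Per the file headers, peaks were called by the authors on each library alone with MACS 2.1.1.20160309 at a q-value of 0.05, with a tag shift of -100 bp, an extension of 200 bp and a local background of 10000 bp. Per the submitters' processing notes, the build was mm10, with Bowtie2 2.3.1 and Picard 1.88. The deposited pileup is a coverage signal not scaled to depth, the deposited −log10 p-value and q-value give its significance, and the deposited fold enrichment is a ratio to local background. A deeper library calls weaker sites at the same q-value, so an uncalled region is not shown to be closed.

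Peaks overlapping by 1 bp were merged, and the tallest peak of a library in a region gave its height. Heights were log2 values of pileup over the list's median, centred per library on regions called in all 6. Distances are from the centre of a region to the nearer end of Il33. Genes came from RefSeq on GRCm38.p6. The table used has no exons, so regions are given as promoter, gene body or intergenic. Tests were two-sided exact permutation tests over the 20 assignments of the libraries, and limma 3.58.1 with trend, tested on simulated data, with R 4.3.3, SciPy 1.17.1, pandas 2.3.3, NumPy 2.4.6, Matplotlib 3.10.9 and Python 3.11.15. Named are Il33, genes within 1 Mb, the 5 largest differences each way, limma calls, the 8 highest-ranked WT-only members (no member was KO-only), the 3 tallest members and listed immune and other genes. Results at 1 of these genes are not reported here. The span, lists and rules were chosen with earlier results of these data known. Alternatives were other thresholds, list lengths, spans, comparison chromosomes, scalings, merging rules, and leaving out libraries.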

Additional observations from a re-analysis of the deposited data

How the results depend on the processing

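Of 20 results, the members' height relative to the rest of chromosome 19 kept its direction in every alternative run but not its size (0.045 to 0.11 leaving out 1 library, 0.041 with the replicate block, 0.018 within 5 Mb, 0.025 within 2 Mb). For the narrower spans, the rest of the chromosome included the members farther out. The peak shares within 0.5 Mb (-0.27 to -0.12 leaving out 1 library) and at 2.5 to 5 Mb (0.39 to 0.65) also kept theirs. So did the height difference at 5 to 10 Mb (0.10 to 0.19), which fell to 0.036 in equal-length lists, 0.055 in the regions above the median height, 0.058 with the replicate block and 0.065 at the stricter threshold. Over all results and settings, 28 values reversed, 41 moved and 167 stayed. None of the permutation results could pass 0.05, so each of those counted as stayed if it kept its direction, whatever its size. The number that stayed is therefore no measure of how stable the sizes were. The cause of a change was not tested unless named.

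In equal-length lists the share of peaks within 10 Mb reversed to -0.61 points (0.94 to 1.47 leaving out 1 library), and by class to -0.21 at 0.5 to 1 Mb, -0.30 at 1 to 2.5 Mb and -0.13 at 5 to 10 Mb. The share at 0.5 to 1 Mb was also -0.21 at the stricter threshold and -0.052 to 0.061 leaving out 1 library (-0.048 without WT 4, -0.0055 without WT 6, -0.0092 without KO 2, -0.052 without KO 4). The background difference was -0.030 without KO 2 (-0.030 to 0.071). The height difference within 0.5 Mb was 0.057 without WT 4, 0.023 without WT 6 and 0.097 without KO 2 (-0.087 to 0.097), 0.018 at the stricter threshold, 0.032 in equal-length lists and 0.24 in the regions above the median height (taller regions). At 0.5 to 1 Mb it was 0.014 without WT 4 and 0.013 without KO 2 (-0.075 to 0.014), 0.053 in the taller regions and 0.0035 with the mean of a region's peaks. At 1 to 2.5 Mb it was -0.0048 at the stricter threshold, -0.069 in equal-length lists and -0.0076 in the taller regions, and at 2.5 to 5 Mb -0.041 without KO 1 and -0.024 without KO 4 (-0.041 to 0.051). The Il33 region was 0.088 with scaling to the list median alone (-0.44 to -0.14 leaving out 1 library).

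Limma calls higher in WT went from 0 to 1 without KO 2, 2 without KO 4, 1 at the stricter threshold and in the taller regions, and 103 with scaling to the list median alone, which leaves in the 0.35 shift. Calls higher in KO went from 2 to 0 without any WT library or KO 1 (0 to 2), 0 with either other scaling, the mean of a region's peaks or no trend, and 1 in equal-length lists, within 5 Mb, within 2 Mb and in the taller regions. Members with heights higher in WT without overlap were 17.7% to 20.2% leaving out 1 library, which separates fewer values, 3.70% within 2 Mb, 55.7% with scaling to the list median alone, 6.39% with scaling to the tags kept and 19.4% in the taller regions. Those higher in KO were 7.27% to 14.6% leaving out 1 library and 0% with scaling to the list median alone. WT-only members were 7.73% to 9.48% leaving out 1 library, 1.32% in equal-length lists and 9.24% where peaks had to cover 50% of a region, and KO-only members were 0% to 0.200% leaving out 1 library and 1.58% with windows of 200 bp around peak centres. The same counts over all regions were not taken under other lists, libraries, scalings or merging rules. The changes are therefore not shown to be particular to the members.

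Replicates 2 and 4 occur in both groups, but equal numbers shared only a number (r of their deviations -0.02 and -0.05). With a replicate block on those 2 pairs, calls higher in KO were 0, heights without overlap 21.9% higher in WT and 14.2% higher in KO, and WT-only members 11%, all on 4 libraries. The blocked height difference was -2.7e-05 at 1 to 2.5 Mb and -0.10 at 2.5 to 5 Mb. The regions below the median height (relative height 0.03), the classes of height and the per-library shares in other lists were added after seeing the data.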
